A study of Monodelphis domestica and Mus musculus with 2 samples.

Results

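The oligodendrocytes of opossum primary visual cortex (V1) were taken as the cells that passed the authors' filter, carried the subclass label OD and were of non-neuronal class. This gave 230 cells among 4806 V1 cells past the filter, 80369 segmented cells of the opossum section and 200608 segmented cells of both species. The section came from 1 adult male gray short-tailed opossum (Monodelphis domestica) of 6 months and was 10 µm thick. It was cut through a block that held coronal slices side by side, and V1 was marked in 3 regions, which need not lie on the same slice. By the study's methods these regions began below layer 1, so the shares and depths given here leave that layer out. The only other sample was 1 section from an adult male C57BL/6J mouse, which by the study's methods was younger than the opossum. Neither animal carried an allele or received a treatment. Stereo-seq captures polyadenylated RNA on a chip of barcoded spots, and each unique molecular identifier (UMI) was assigned to the cell segmented at its position.

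Oligodendrocytes wrap axons of the central nervous system in myelin, a stack of membrane rich in cholesterol and galactolipids that is held together by a few abundant proteins. They arise from oligodendrocyte precursor cells (OPC), and in the cortex they are known to be densest in the deep layers and in the white matter below. The mRNA of MBP, which encodes myelin basic protein, is known to be carried out into the processes and translated there.

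Class and subclass labels had been transferred from a single-nucleus RNA-seq atlas by expression, so differences in expression between labelled groups are given as a description, without a test. Levels are UMIs per 10000 UMIs summed over the cells of a group, with exact Poisson intervals at 95%. Ratios of levels carry exact conditional intervals and shares carry Clopper-Pearson intervals at the same level. All intervals cover counting error only. With 1 animal there were no biological replicates, and the 3 regions show the spread within that animal. The study's methods name a single section, whereas a figure legend counts more than 1 for the 3 opossum regions.

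The 230 oligodendrocytes held 301476 UMIs, with a median of 1180 UMIs and 756.5 genes per cell, and a range of 129 to 3634 UMIs. They were compared with 359 astrocytes of non-neuronal class (median 1180 UMIs per cell) and with 331 cells that carried the OD label but were of glutamatergic class (median 973 UMIs), called glutamatergic-class OD cells here. The 2711 glutamatergic neurons with a neuronal subclass (median 1484 UMIs) and 29 OPC (median 1447 UMIs) served as references. A further 4 OD-labelled cells were of GABAergic class and were not used. No cell barcode was shared by the opossum and mouse libraries, and doublets were not called.

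The 3 genes that mark the type were all higher in oligodendrocytes than in every other group. MBP (ENSMODG00000012291) was at 83.5 UMIs per 10000 (80.3 to 86.8) in oligodendrocytes, 61.6 (59.1 to 64.2) in glutamatergic-class OD cells, 34.2 (32.5 to 35.9) in astrocytes, 26.8 (22.1 to 32.2) in OPC and 25.1 in glutamatergic neurons. MOG (ENSMODG00000016030), a protein of the outer face of the sheath, was at 4.74 (4.00 to 5.59) in oligodendrocytes, 1.38 (1.03 to 1.81) in glutamatergic-class OD cells and 0.55 (0.36 to 0.81) in astrocytes. MAG (ENSMODG00000013859), an adhesion protein facing the axon, was at 1.33 (0.95 to 1.81), 0.42 (0.24 to 0.69) and 0.24 (0.12 to 0.43) in the same order. The order oligodendrocytes, glutamatergic-class OD cells, astrocytes held for all 3 genes, with intervals that overlapped only between the last 2 groups for MAG. By region, MBP in oligodendrocytes was at 73.3, 92.9 and 71.7, MOG at 4.29, 4.82 and 5.54, and MAG at 0.90, 1.75 and 0.72. MBP and MAG were highest in region 2, and MOG was not.

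**Figure D1:**
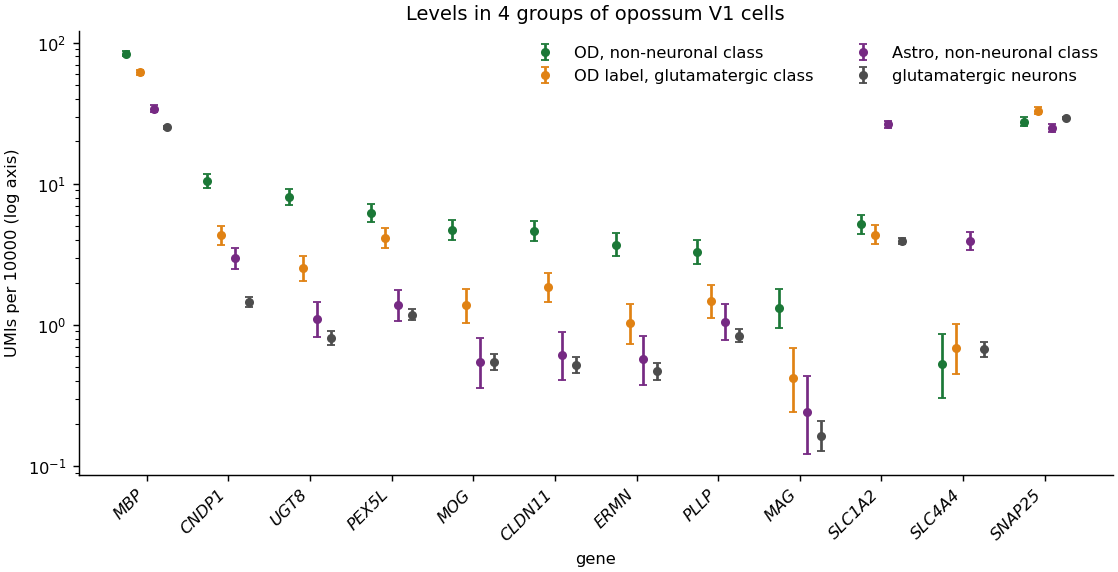
Levels of 12 genes in 4 groups of opossum V1 cells, as UMIs per 10000 on a log axis, with points for the summed counts of a group and bars for exact 95% Poisson intervals. The 9 oligodendrocyte genes on the left are highest in oligodendrocytes (UGT8 8.13) and next in glutamatergic-class OD cells (UGT8 2.52), the astrocyte genes SLC1A2 and SLC4A4 are highest in astrocytes, and SNAP25 lies between 24.9 and 33.0 in all 4 groups.

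At the level of single cells, MBP was found in 226 of the 230 oligodendrocytes, MOG in 88 and MAG in 32. All 3 genes were found in 15 cells and none of them in 3. The share of cells with MBP separated the groups poorly, since 87.7% of astrocytes and 84.4% of glutamatergic neurons also held at least 1 MBP UMI. After each cell was thinned to 300 UMIs, the share with MBP was 85.8% (80.5 to 90.1) in oligodendrocytes, 59.6% in astrocytes and 49.0% in neurons. MOG was found in 38.3% of oligodendrocytes against 5.01% of astrocytes and 7.12% of neurons, and in 8.89%, 1.72% and 1.90% after thinning. UGT8, which makes the galactolipids of myelin, was found in 48.7%, 10.6% and 9.44% of the same groups, and in 21.3%, 4.87% and 2.13% after thinning. The median oligodendrocyte held 10 MBP UMIs, with a maximum of 43.

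Cells varied widely in their summed myelin list, a set of 22 genes of compact myelin and the paranode, of which 16 have a feature under their symbol. The median oligodendrocyte was at 140.2 UMIs per 10000, with 60.2 at the 10th percentile, 279.0 at the 90th percentile and 609.8 at the maximum. The median was 80.0 in glutamatergic-class OD cells, 43.1 in astrocytes and 33.6 in neurons. The 10th percentile of oligodendrocytes thus lay above the median of astrocytes and below that of glutamatergic-class OD cells.

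RNA of neurons was counted in oligodendrocytes at nearly its level in neurons. A list of 29 pan-neuronal and glutamatergic genes, 24 of them with a feature, summed to 231.1 UMIs per 10000 in oligodendrocytes, 217.2 in astrocytes and 256.9 in glutamatergic neurons, a ratio of 0.90 (0.88 to 0.92) of oligodendrocytes to neurons. SNAP25, a protein of synaptic vesicle fusion, was at 27.6 in oligodendrocytes and 29.3 in neurons. NRGN and LYNX1, both abundant in cortical neurons, were with MBP and SNAP25 among the 10 features with the most UMIs in oligodendrocytes. MBP had 2.44 times its level in astrocytes, whereas the ratio was 1.01 (0.94 to 1.08) for NRGN, 1.09 (1.05 to 1.14) for LYNX1 and 1.11 (1.01 to 1.22) for SNAP25. The part of RNA from neighboring cells or neuropil in these values was not tested.

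Oligodendrocytes made up 34.0% (30.4 to 37.7) of the 677 non-neuronal cells and 4.79% (4.20 to 5.43) of all V1 cells. They were 78 of 238 non-neuronal cells in region 1 (32.8%), 120 of 299 in region 2 (40.1%) and 32 of 140 in region 3 (22.9%). Counting error did not cover the spread between regions, since the intervals of region 2 (34.5 to 45.9%) and region 3 (16.2 to 30.7%) did not overlap. Astrocytes per oligodendrocyte were 1.65, 1.21 and 2.66. The share of glutamatergic cells with the OD label was even, in contrast, at 8.44%, 8.96% and 9.21%. The study took no cell densities from this assay, since transcripts can drop out, and the shares given here refer to labelled cells only.

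**Figure D2:**
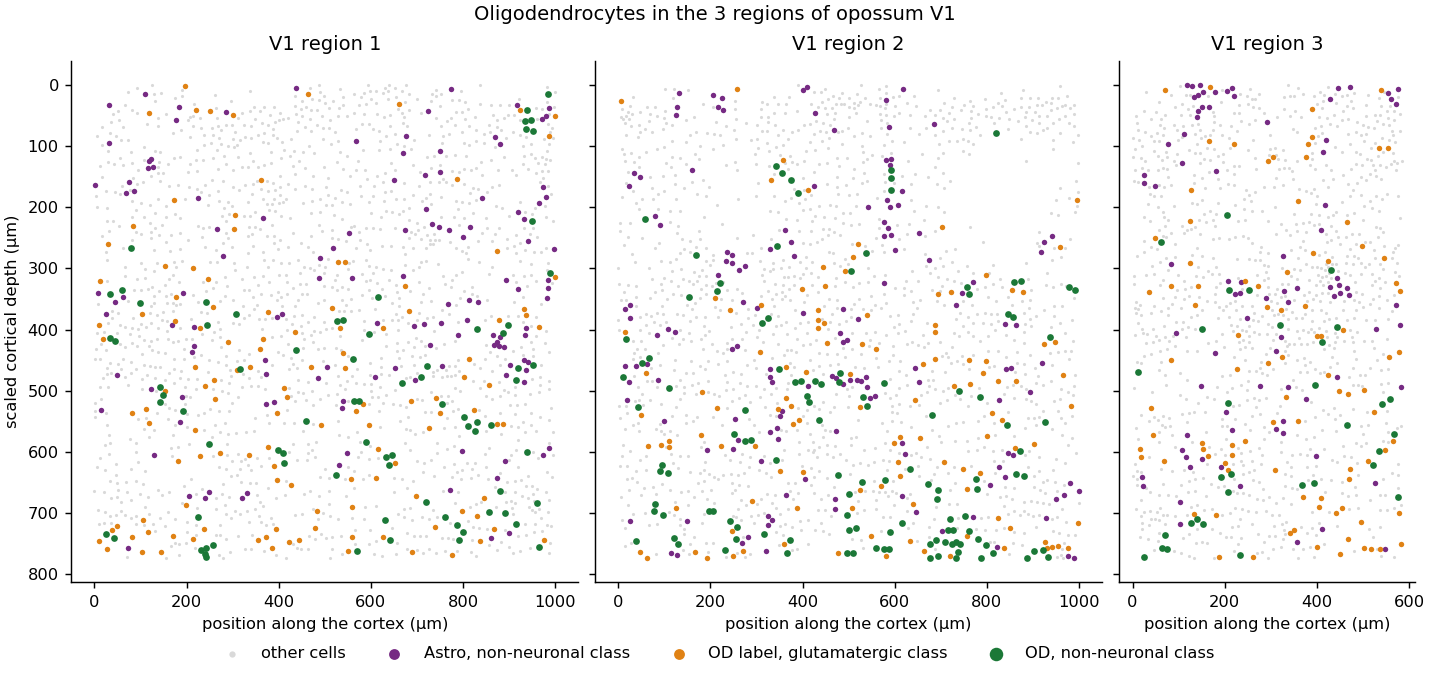
Position of V1 cells in the 3 opossum regions, with distance along the cortex on the x axis and scaled depth on the y axis, both in µm, and 1 point for each cell. Oligodendrocytes (230 cells) gather toward the bottom of each region, whereas astrocytes (359 cells) are found at all depths.

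Depth was measured from the top of each region and scaled to the tallest region, 773.5 µm. The median oligodendrocyte lay at 575 µm, with medians of 527, 633 and 585 µm in the 3 regions (SD 52.9 µm). Astrocytes lay at a median of 374 µm, glutamatergic neurons at 345 µm and glutamatergic-class OD cells at 517 µm. In each region oligodendrocytes lay deeper than glutamatergic-class OD cells (515, 530 and 486 µm) and these lay deeper than astrocytes (354, 432 and 336 µm). In 5 equal depth bins from top to bottom, oligodendrocytes were 1.06%, 1.69%, 3.95%, 6.61% and 10.9% of all cells. The share in the deepest bin was 7.02%, 17.03% and 6.70% in regions 1, 2 and 3, so the lowest part of region 2 stood out, and 63 of the 102 oligodendrocytes of that bin came from it. Only 11 oligodendrocytes lay in the uppermost bin, 6 of them in region 1, 5 in region 2 and 0 in region 3. Astrocytes changed less over depth, between 5.45% and 8.62% of cells.

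**Figure D3:**
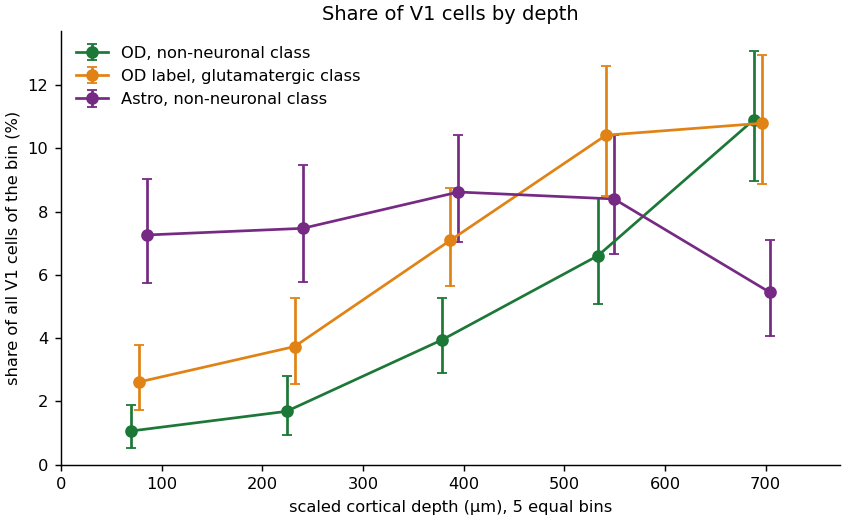
Share of all V1 cells (%) in 5 equal bins of scaled depth (µm), for oligodendrocytes, glutamatergic-class OD cells and astrocytes, with bars for 95% Clopper-Pearson intervals and points of a bin set slightly apart sideways. Oligodendrocytes go from 1.06% in the uppermost bin to 10.9% in the deepest, and glutamatergic-class OD cells from 2.61% to 10.8%.

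Oligodendrocytes lay close to each other, and astrocytes did likewise. The nearest other oligodendrocyte was at a median of 18.8 µm (interquartile range 13.8 to 43.0), and 28.7% had one within 15 µm. Glutamatergic neurons were at a median of 62.5 µm from the nearest oligodendrocyte and astrocytes at 52.7 µm. Among the 5 cells nearest to each oligodendrocyte, 21.1% were oligodendrocytes and 12.7% were glutamatergic-class OD cells, against 4.79% and 6.89% of all V1 cells. Astrocytes were 9.13% of these neighbors, against 7.47% of all cells. For astrocytes, the nearest other astrocyte was at a median of 21.5 µm, 31.8% had one within 15 µm, and 20.8% of their 5 nearest cells were astrocytes, so closeness to the same type was not particular to oligodendrocytes. Shares over all cells do not account for depth, and oligodendrocytes reached 10.9% of cells in the deepest bin.

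Against astrocytes, oligodendrocytes were higher in genes of the myelin sheath and of its lipids, and lower in astrocyte genes such as SLC1A2, AQP4 and GJA1 and in precursor genes. Of 5508 genes with at least 30 UMIs in both groups together, 222 were at least 2-fold higher in oligodendrocytes (4.03%) and 377 at least 2-fold lower (6.84%), with a median ratio of 1.00. Oligodendrocytes also lay deeper than astrocytes. In the deepest 2 of the 5 bins, which held 161 oligodendrocytes and 126 astrocytes, 195 genes were higher and 198 lower. Fewer cells can leave fewer genes with 30 UMIs, and the number tested in these bins is not given here. These 2 counts therefore cannot be set against those over all depths.

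Of the 16 genes of the myelin list with a feature, 10 had enough UMIs, and 8 of these were at least 2-fold higher in oligodendrocytes, none at least 2-fold lower and all 10 above 1, with a median ratio of 4.84. The list summed to 150.9 UMIs per 10000 in oligodendrocytes and 50.4 in astrocytes, a ratio of 3.00 (2.85 to 3.15), with 2.97, 3.00 and 2.65 in the 3 regions and 2.38 in the deepest 2 bins. Without MBP the ratio was 4.17 (3.83 to 4.54), so it did not rest on this abundant gene. Of genes with at least 100 UMIs, 6.59% were past 2-fold in either direction. Among those with a symbol and a ratio above 1 in all 3 regions, MOG had the largest ratio at 8.61 (5.60 to 13.8). CLDN11, the tight junction protein that seals myelin lamellae, was at 4.64 against 0.62, a ratio of 7.53 (4.99 to 11.7). ERMN, a cytoskeletal protein of oligodendrocytes, was at 3.72 against 0.57 (ratio 6.49). PLLP, a membrane protein of myelin, was at 3.32 against 1.06 (ratio 3.14). MAG (5.48), GPR37 (4.52) and MBP (2.44) also passed 2-fold. The adhesion molecules NFASC and CADM4, which neurons or other cells are known to express too, had ratios of 1.86 and 1.49. CNP, an enzyme of noncompact myelin, rested on 13 and 3 UMIs and was not counted among the 10. MOBP, OPALIN and CD9 have no feature under their symbol and are not analysed here.

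Genes of myelin lipids were higher in oligodendrocytes, whereas those of cholesterol synthesis had a summed ratio closer to 1. UGT8 (ENSMODG00000005251) was at 8.13 (7.14 to 9.21) in oligodendrocytes and 1.10 (0.82 to 1.45) in astrocytes, with ratios of 7.89, 5.58 and 15.7 in the 3 regions. Of 7 genes with enough UMIs among 13 lipid genes with a feature, 3 were at least 2-fold higher, UGT8 and ELOVL1 (2.01) among them, and none at least 2-fold lower, with a median ratio of 1.59. The desaturase SCD was at 6.14 against 3.85 (ratio 1.59, 1.29 to 1.97). Of 8 cholesterol genes with enough UMIs, none passed 2-fold in either direction, and the list summed to 12.5 against 11.2, a ratio of 1.12 (0.98 to 1.28). HMGCS1, an early enzyme of the pathway, had a ratio of 0.95 (0.69 to 1.32). The interval of the summed list holds 1, but not in every choice of cells, since the ratio was 1.32 (1.12 to 1.54) with first-round labels alone and 1.19 (1.00 to 1.40, lower bound just above 1) without region 1. The 3 regions gave 1.00, 1.13 and 1.34.

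Several genes of mature oligodendrocytes were higher than in astrocytes, whereas the summed level of genes of newly formed oligodendrocytes did not differ beyond counting error. Of 10 mature oligodendrocyte genes with enough UMIs, 4 were at least 2-fold higher, none at least 2-fold lower, and the median ratio was 1.90. These were the chaperone CRYAB (1.43 against 0.31, ratio 4.63), PEX5L (6.20 against 1.39, ratio 4.47), the carnosine synthase CARNS1 (ratio 3.24) and SLAIN1 (ratio 2.58). CNDP1 (ENSMODG00000012366), a dipeptidase that splits carnosine, was at 10.5 (9.36 to 11.7) against 2.97 (2.49 to 3.52), a ratio of 3.52 (2.87 to 4.34). In the 3 regions CNDP1 was at 11.9, 10.4 and 7.46 in oligodendrocytes and at 3.20, 2.90 and 2.70 in astrocytes, so these values did not overlap. Of the oligodendrocyte transcription factors, ST18 was at 1.89 against 0.29 (ratio 6.60, 3.57 to 13.1) and ZEB2 had a ratio of 2.15 (1.03 to 4.60). SOX8 had 1.33 and TCF7L2, which is known from newly formed cells, 0.66 (0.42 to 1.04). OLIG2 was at 0 UMIs in oligodendrocytes, where the floor of 3 counts is 0.0995 per 10000, and OLIG1, SOX10 and MYRF are not analysed here for want of a feature under their symbol. The list of newly formed oligodendrocytes summed to 5.41 against 6.01, a ratio of 0.90 (0.74 to 1.10), with 0.42, 1.21 and 1.39 in the 3 regions. Of its 4 genes with enough UMIs none was at least 2-fold higher and ITPR2 was lower (4 against 31 UMIs, ratio 0.19), with a median ratio of 0.85. ENPP6, an enzyme of this stage that was below the minimum of 30 UMIs, had 15 UMIs in oligodendrocytes and 0 in astrocytes, at least 7.53-fold higher against a floor of 3 counts in astrocytes.

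Precursor genes were lower in oligodendrocytes. The OPC list summed to 10.2 UMIs per 10000 in oligodendrocytes, 21.5 in astrocytes and 36.8 in OPC, and 4 of its 6 genes with enough UMIs were at least 2-fold lower than in astrocytes (LUZP2, PTPRZ1, SOX6 and XYLT1). Some of these genes are known to be expressed by astrocytes too. PDGFRA, the receptor that defines precursors, was found in 2 of 230 oligodendrocytes and in 9 of 29 OPC. UGT8 had 245 UMIs in oligodendrocytes and 0 in OPC, at least 11.3-fold higher against the floor in OPC.

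Of 20 astrocyte genes with enough UMIs, 12 were at least 2-fold lower in oligodendrocytes, and the list summed to 102.3 against 186.3. SLC1A2 (ENSMODG00000019823), the main glutamate transporter, was at 5.17 against 26.5 (ratio 0.20, 0.16 to 0.23), with 0.21, 0.18 and 0.22 in the 3 regions. The bicarbonate cotransporter SLC4A4 was at 0.53 against 3.96 (ratio 0.13), the connexin GJA1 at 3.15 against 9.25 (ratio 0.34) and the water channel AQP4 at 1.43 against 4.03 (ratio 0.35). Genes with at least 100 UMIs, a symbol and a ratio below 1 in all 3 regions were ranked. The lowest ratios were those of PARD3B (0.30 against 3.04, ratio 0.10) and the transcription factor GLIS3 (0.27 against 2.49, ratio 0.11). FAM168A, SLC4A4, PREX2, LUZP2, CARMIL1, SLC1A2, HES5 and CADM1 (0.22) followed. HTRA1, a secreted protease listed as an astrocyte gene, was higher in oligodendrocytes at 1.43 against 0.64 (ratio 2.23, 1.36 to 3.71).

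Other groups of genes differed less. A list of channel and gap junction genes of oligodendrocytes summed to 35.5 against 34.9, a ratio of 1.02 (0.94 to 1.10). Of its 7 genes with enough UMIs none was at least 2-fold lower. GJB1, which encodes a connexin of oligodendrocytes, was higher at 0.80 against 0.22 (ratio 3.61) and the cation-chloride cotransporter SLC12A2 at 2.69 against 1.17 (ratio 2.30), while the inward rectifier KCNJ10 was at 1.26 against 2.00 (ratio 0.63, 0.42 to 0.93). Of 6 genes of energy supply, none was at least 2-fold higher and the lactate and pyruvate carrier SLC16A7 was lower (0.27 against 0.59, ratio 0.45, 0.18 to 1.01). Of 11 genes of the cytoskeleton and transport, ERMN and the kinesin KIF13B (ratio 2.22) were at least 2-fold higher. Iron genes rested on 1 gene with enough UMIs, the transferrin receptor TFRC (ratio 0.67, 0.35 to 1.24). ADAMTS4, a protease, was at 2.45 against 0.64 (ratio 3.84) and PLCL1 at 4.05 against 1.10 (ratio 3.67).

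Of 22 neuron genes with enough UMIs, none was at least 2-fold higher than in astrocytes, 1 was at least 2-fold lower, and the summed ratio was 1.06 (1.03 to 1.10). In the list for GABAergic neurons, ERBB4, the neuregulin receptor of interneurons that is also known from oligodendrocytes, was at 6.10 (5.25 to 7.05) against 2.62 (2.17 to 3.14), a ratio of 2.33. It varied between regions, at 10.2, 3.32 and 6.98 in oligodendrocytes and 4.51, 1.60 and 1.29 in astrocytes. GAD1 and GAD2, which make GABA, had ratios of 1.41 (1.06 to 1.87) and 1.27 (0.86 to 1.86). The summed GABAergic list was at 19.0 in oligodendrocytes and 16.5 in astrocytes. Of 5 immediate early genes none passed 2-fold, and of 6 stress genes CRYAB did. Microglial genes summed to 1.23 and endothelial genes to 4.98 UMIs per 10000 in oligodendrocytes, against 1.89 and 7.16 in astrocytes.

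The same OD label was carried by 331 cells of glutamatergic class, and these stood between oligodendrocytes and neurons in their myelin list. Of 4951 genes with enough UMIs, 193 were at least 2-fold higher in oligodendrocytes of non-neuronal class (3.9%) and 132 at least 2-fold lower (2.67%), with a median ratio of 0.99. Of 10 myelin genes, 7 were at least 2-fold higher in oligodendrocytes and all 10 lay above 1. The list was at 150.9 in oligodendrocytes against 85.3 in glutamatergic-class OD cells, a ratio of 1.77 (1.69 to 1.85), and at 38.3 in neurons. The 3 regions gave oligodendrocytes 136.5, 167.1 and 123.5 and glutamatergic-class OD cells 79.9, 95.8 and 78.5, so no region overlapped.

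The genes differed in how far apart they set these groups. MBP was 1.36-fold (1.28 to 1.43) higher in oligodendrocytes than in glutamatergic-class OD cells, MOG 3.44-fold (2.49 to 4.83), UGT8 3.23-fold (2.54 to 4.14) and ERMN 3.60-fold (2.48 to 5.32). The interval of MBP lay below those of the other 3 genes. Against neurons, MBP was 2.45 times as high in glutamatergic-class OD cells by level (61.6 against 25.1) and MOG 2.52 times (1.38 against 0.55). QKI, an RNA-binding protein of myelin mRNAs, was at 7.96 in oligodendrocytes and 3.44 in glutamatergic-class OD cells (ratio 2.31, 1.86 to 2.88), yet at 10.2 in astrocytes. ERBB4 was at 6.10 against 1.83 (ratio 3.34, 2.52 to 4.47), and CNDP1 at 10.5 against 4.34 (ratio 2.41). TCF12 and the membrane linker RDX had ratios of 2.37 and 2.33.

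Of the genes with at least 100 UMIs, 1.82% were past 2-fold in either direction and only 8 were at least 2-fold lower. The 6 of these with a symbol were below 1 in all regions, FAT3 (0.40), CDC27, CALB1 (0.48), ADCYAP1 (0.48), RXRB and JTB (0.49). CALB1 encodes the calcium buffer calbindin and ADCYAP1 the neuropeptide PACAP. CALB1 was at 1.03 in oligodendrocytes, 2.15 in glutamatergic-class OD cells and 2.41 in neurons. The neuron list was at 231.1 in oligodendrocytes and 258.6 in glutamatergic-class OD cells (ratio 0.89, 0.87 to 0.92), and its level in the latter was 1.01 (0.99 to 1.03) times that in neurons. SNAP25 was at 27.6 and 33.0. The astrocyte list was 1.21-fold (1.15 to 1.27) higher in oligodendrocytes, with 0 of its 18 genes at least 2-fold lower.

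The labels themselves differed between the 2 groups. Subclass labels had been given over 3 rounds of decreasing agreement among neighbors in the atlas. Of the 230 oligodendrocytes, 135 were labelled in the first round, 87 in the second and 8 in the last, while the glutamatergic-class OD cells counted 0, 260 and 71. Oligodendrocytes of the first round were at 90.9 (86.6 to 95.3) for MBP and 6.06 (4.99 to 7.28) for MOG. Those of the second round were at 70.1 (65.2 to 75.4) and 2.28 (1.46 to 3.39). Glutamatergic-class OD cells of the second round were at 63.5 (60.7 to 66.5) and 1.71 (1.27 to 2.25), and those of the last round at 54.4 (49.3 to 59.7) and 0.13 (0.0032 to 0.70). The order of these 4 sets was the same for both genes, though the intervals of the second-round sets overlapped for both. The 8 oligodendrocytes of the last round were at 86.2 (68.6 to 107.0) for MBP and 6.31 (2.31 to 13.7) for MOG. By the authors' cluster labels, 93 glutamatergic-class OD cells were in cluster 3, where 90.8% of neurons were L6CT, a deep corticothalamic subclass. A further 85 were in cluster 4, where 63.8% of neurons were IT_C, an intratelencephalic subclass, and 116 had none. Of the oligodendrocytes, 199 had no cluster label.

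Both groups were compared with neurons at the same depth, since MBP was higher in the deepest bin than in the uppermost one in every group. From the uppermost bin to the deepest, MBP in neurons was at 13.4, 19.0, 24.8, 29.4 and 38.5. In astrocytes it was at 18.3, 22.5, 32.9, 36.6 and 59.4. Oligodendrocytes were at 67.0, 58.8, 64.2, 67.9 and 104.6, with no order among the first 4 bins beyond counting error. The ratio of oligodendrocytes to neurons was 5.02, 3.09, 2.59, 2.30 and 2.71 for MBP and 27.1, 19.0, 7.31, 7.47 and 6.00 for MOG. For glutamatergic-class OD cells the ratio to neurons was 3.58, 2.25, 2.14, 1.78 and 2.11 for MBP and 1.60, 2.41, 2.22, 2.85 and 1.81 for MOG. Glutamatergic-class OD cells lay between neurons and oligodendrocytes in all 5 bins for both genes, but for MOG their interval overlapped that of neurons in every bin except the one above the deepest.

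**Figure D4:**
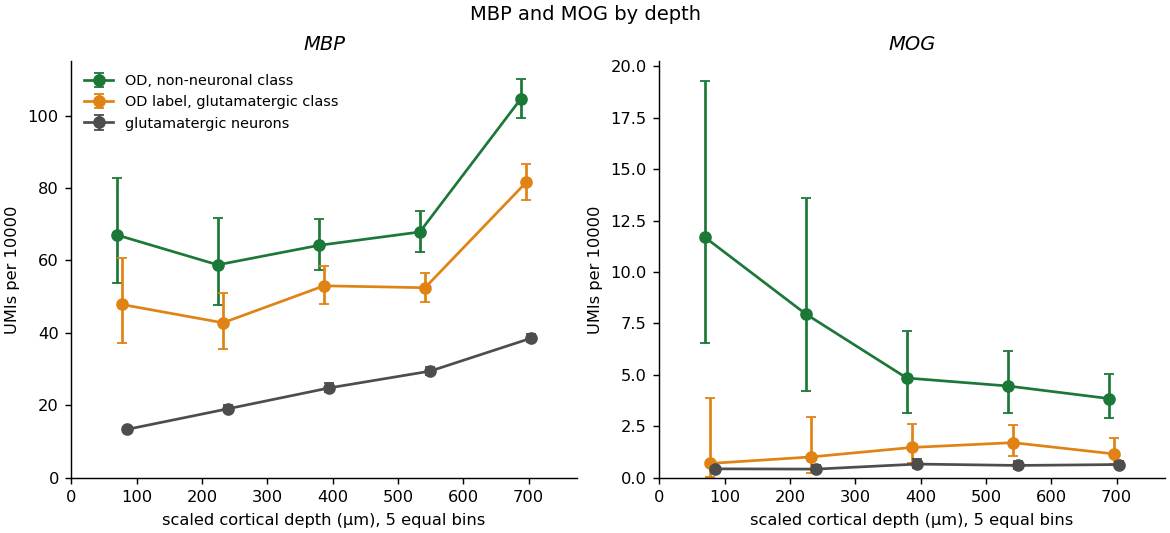
Levels of MBP and MOG (UMIs per 10000) in 5 equal bins of scaled depth (µm), for oligodendrocytes, glutamatergic-class OD cells and glutamatergic neurons, with bars for exact 95% Poisson intervals. MBP in neurons goes from 13.4 to 38.5 with depth and in oligodendrocytes from 67.0 to 104.6. MOG in oligodendrocytes is highest in the uppermost bin (11.7, from 11 cells).

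Within the oligodendrocytes, depth went with different changes in different myelin genes. The 11 cells of the uppermost bin were at 11.7 (6.54 to 19.3) for MOG. The 102 cells of the deepest bin were at 3.85 (2.88 to 5.03). MBP went the other way, at 67.0 (53.6 to 82.8) and 104.6 (99.3 to 110.2). These genes thus did not go together over these bins, but the uppermost bin rests on 11 cells and the bins mix regions. A single oligodendrocyte held up to 6 MOG UMIs, and the intervals do not cover the spread between cells. Of the deepest cells, 63 came from region 2, where MBP was highest, and region 3 gave 0 of the uppermost cells. UGT8 had overlapping intervals in these bins, at 7.02 (3.21 to 13.3) and 8.86 (7.36 to 10.6). From the uppermost to the deepest bin, MBP also went from 18.3 to 59.4 in astrocytes and from 13.4 to 38.5 in neurons. The ratio of oligodendrocytes to astrocytes for MBP was 3.67 in the uppermost bin and 1.76 in the deepest. A higher MBP level in the deepest bin was thus not particular to oligodendrocytes.

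Each region was also split at the median depth of its oligodendrocytes, into 115 deeper and 115 upper cells with medians of 1184 and 1150 UMIs. Of 2437 genes with at least 30 UMIs, 113 were at least 2-fold higher in the deeper cells (4.64%) and 122 at least 2-fold lower (5.01%). The share that counting error alone would put past 2-fold was not computed for this split. These counts therefore cannot be read as numbers of genes that change with depth. Of the 10 myelin genes, none was at least 2-fold higher and NFASC was lower (ratio 0.47). The myelin list was 1.33-fold (1.25 to 1.41) higher in the deeper cells, by 1.26, 1.44 and 1.03 in the 3 regions. MBP accounted for most of it, at 101.5 in deeper and 64.4 in upper cells (ratio 1.57, 1.45 to 1.71). Over the 5 depth bins, MBP also went up with depth in astrocytes and in neurons. Without MBP the list had a ratio of 1.08 (0.99 to 1.18). Over the 5 depth bins from top to bottom the myelin list was at 205.8, 142.7, 116.7, 125.8 and 174.7, so it was highest in the 11 cells of the uppermost bin and did not go up steadily with depth. MOG was at 3.94 and 5.60 (ratio 0.70, 0.50 to 0.99).

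Among genes with at least 100 UMIs, 2.47% were past 2-fold in either direction, and 9 with a symbol were on the same side of 1 in all 3 regions. Some of these are known from neurons. PCP4L1, a calmodulin-binding protein, was at 14.1 in deeper and 5.94 in upper oligodendrocytes (ratio 2.38, 1.85 to 3.09), with 2.78, 2.28 and 2.30 in the 3 regions. The synaptic protein NPTX1 was at 6.52 and 2.94 (ratio 2.22), and PHYHIPL, RPS10 and NDRG3 had ratios of 2.24, 2.11 and 2.02. LINGO1, which is known to restrain myelination, was at 1.68 and 5.60 (ratio 0.30, 0.18 to 0.47), by 0.41, 0.25 and 0.13 in the 3 regions. The interneuron peptide SST was at 2.06 and 5.46 (ratio 0.38), PLCL1 at 2.06 and 6.14 (ratio 0.34) and KCNIP3 at 1.94 and 4.78 (ratio 0.41). LINGO1, SST and PCP4L1 were counted in glutamatergic neurons too, at 4.59, 3.75 and 5.80, so they were not particular to oligodendrocytes. The neuron list as a whole was level between the deeper and upper cells, at a ratio of 1.02 (0.98 to 1.07), whereas the GABAergic list was at 0.67 (0.57 to 0.80).

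The neurons around oligodendrocytes were examined for the same RNA. The 92 glutamatergic neurons within 15 µm of an oligodendrocyte were at 35.1 (31.9 to 38.6) for MBP and 1.04 (0.55 to 1.78) for MOG. The 1679 neurons farther than 50 µm were at 21.3 and 0.48, ratios of 1.65 (1.49 to 1.82) and 2.17 (1.13 to 3.86). The near neurons lay deeper, at a median of 511 µm against 202 µm. Within the 5 depth bins from top to bottom, the ratio for MBP was 2.36, 1.25, 0.73, 1.08 and 1.36, with 4, 13, 24, 19 and 32 near neurons. MBP was thus not higher near oligodendrocytes at every depth, and MOG had too few UMIs for ratios within bins. SNAP25 was at 28.1 near and 29.1 far (ratio 0.96, 0.86 to 1.07). The part of segmentation in these values was not tested.

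The mouse section offered the same contrast in the other species, with 481 oligodendrocytes and 429 astrocytes of non-neuronal class. Species, age, animal, section, RNA quality and reference genome cannot be told apart here, and no test was run between species. The paper gives a lower RNA integrity number for the opossum block than for the mouse block. It also says that transcript dropout may be more pronounced in opossums. Of 934 genes with a matching symbol and at least 100 UMIs in each species, 15 were at least 2-fold higher in opossum oligodendrocytes than in opossum astrocytes. Of these, 14 had a ratio above 1 in the mouse and 6 were at least 2-fold higher there, among them MOG, CLDN11, TMEFF2, MBP and PLLP. Of 32 genes at least 2-fold lower in the opossum, 28 had a ratio below 1 in the mouse and 14 were at least 2-fold lower. Over all 934 genes, 7 were at least 2-fold higher and 19 at least 2-fold lower in mouse oligodendrocytes than in mouse astrocytes. The share of all 934 genes above or below 1 in the mouse is not given here. The counts of 14 and 28 on the same side of 1 thus have no background to be read against. Among these 934 genes, none was past 2-fold in opposite directions.

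Ratios were close in both species for MBP, with 2.44 (2.29 to 2.60) for opossum cells and 2.55 (2.30 to 2.82) for mouse cells. The opossum ratio was higher for PEX5L, at 4.47 (3.34 to 6.05) against 1.64 (1.25 to 2.17). For MOG the values were 8.61 (5.60 to 13.8) and 5.07 (3.03 to 9.02), with overlapping intervals. SLC1A2 was lower in oligodendrocytes in both, with an opossum ratio of 0.20 and a mouse ratio of 0.63. FAM168A had an opossum ratio of 0.12 (0.05 to 0.24) and a mouse ratio of 1.06 (0.79 to 1.43). HTRA1, which had too few opossum UMIs to be among the 934 and was singled out after its values were seen, had an opossum ratio of 2.23 (1.36 to 3.71) and a mouse ratio of 0.35 (0.24 to 0.50). CNDP1, at 316 UMIs in opossum oligodendrocytes, was counted 3 times in the 684059 UMIs of mouse oligodendrocytes and 0 times in mouse astrocytes.

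**Figure D5:**
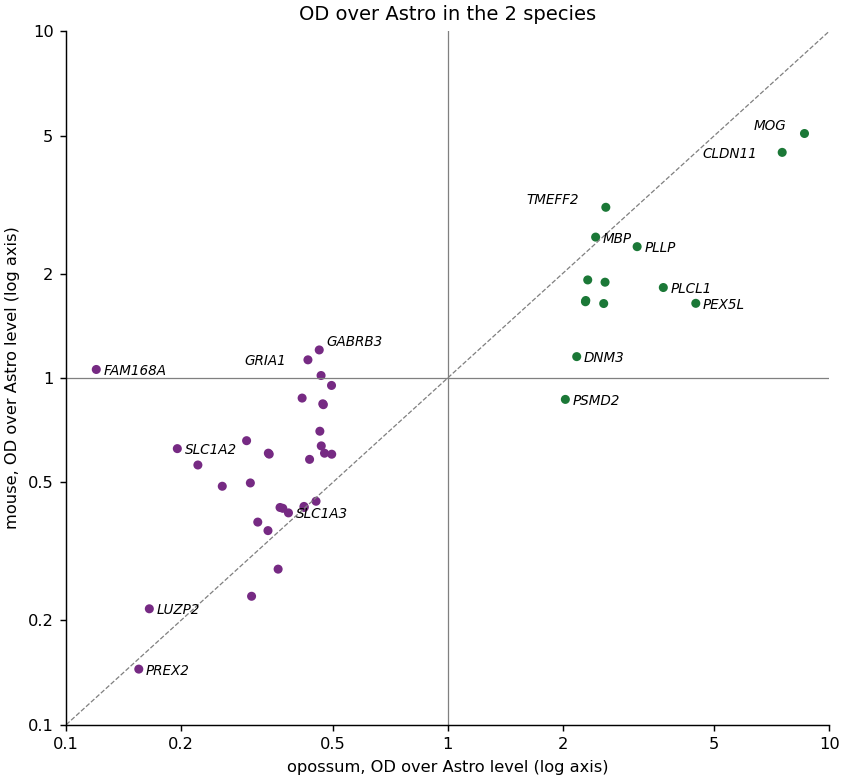
Ratio of the level in oligodendrocytes to that in astrocytes, opossum on the x axis and mouse on the y axis, both on log axes, for reported genes past 2-fold in the opossum with at least 100 UMIs in each species. Each point is 1 gene, the dashed line marks equal ratios, and the myelin genes MOG, CLDN11 and MBP lie at the upper right.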

How the data were processed

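For each section the authors deposited raw UMI counts per gene and segmented cell, with positions, V1 regions and labels. Reads had been processed with the Stereo-seq Analysis Workflow, the opossum's against a custom reference whose gene ends had been lengthened. RNA that drifts before capture, and cell outlines that take in neighbors, can both add UMIs to a cell. Labels came from nearest-neighbor classification against each species' single-nucleus atlas.

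Counts were analysed with Python 3.11.15, numpy 2.4.6, scipy 1.17.1 and pandas 2.3.3. The authors' filter (50 genes, 100 UMIs) was kept, and 14 opossum V1 cells failed it. Counts were summed per group and given as UMIs per 10000. Depth came from the smallest rectangle around each region, its top being the end nearer to IT_A neurons. With 1 animal per species no test was run. Genes with at least 30 UMIs in both groups together were compared, and past 2-fold were counted. Named genes were the list members and, with at least 100 UMIs and the same side of 1 in all 3 regions, the 10 (5 for depth) largest and smallest ratios, a few of which are left out here. The cells, the 18 gene lists and the rules were chosen with earlier results of these data known. Of 297 list genes, 215 have an opossum feature with that symbol. Of 30613 features, 11598 carry a symbol. The ratio computation was tested on simulated data. Alternatives were a stricter filter, leaving out each region, first-round labels, thinning, means over cells, other minimums and other distances.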

Additional observations from a re-analysis of the deposited data

How the results depend on the processing

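No paired analysis was possible because each species has 1 sample. Of 115 values under other settings, 84 stayed within the error of the reported value, or within 1.5 times for counts of genes. For depth the error was the SD over regions. No ratio of levels moved to the other side of 1. The share, the depth, the MBP level and the counts of genes have no such side, so they could not change direction. Leaving out each region in turn gave ranges of 29.1 to 36.9% for the oligodendrocyte share of non-neuronal cells, 546 to 625 µm for their median depth, 72.8 to 88.6 for their MBP level, 2.87 to 3.03 for the myelin list against astrocytes, 1.67 to 1.78 against glutamatergic-class OD cells, 1.20 to 1.38 for the deeper against the upper cells and 1.33 to 1.85 for MBP in near against far neurons, each of them lowest without region 2. For gene counts the ranges were 175 to 212 higher and 273 to 360 lower than in astrocytes, 130 to 182 higher and 114 to 171 lower than in glutamatergic-class OD cells, and the cholesterol and neuron lists ranged from 1.08 to 1.19 and from 0.88 to 0.90.

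First-round labels alone gave a share of 29.9%, an MBP level of 90.9 and ratios to astrocytes of 3.40 for the myelin and 1.32 (1.12 to 1.54) for the cholesterol list, and no value for glutamatergic-class OD cells, of which 0 had such a label. Thinning to 300 UMIs left 44 genes higher and 81 lower than in astrocytes and 34 and 40 against glutamatergic-class OD cells, because fewer genes then reach 30 UMIs, and a neuron list ratio of 0.863. A minimum of 10 UMIs gave 736, 1091, 795 and 670 genes, and one of 100 UMIs gave 32, 79, 19 and 8, in the same order. Means over cells gave an MBP level of 88.2 and 217 genes lower than in glutamatergic-class OD cells. The deepest 2 bins, an alternative chosen after seeing the data, gave an MBP level of 90.8, 198 genes lower than in astrocytes and a myelin ratio of 2.38. The number of genes tested under each alternative is not given here, so these counts of genes cannot be read as shares. For MBP in near against far neurons, limits of 10 and 50 µm gave 1.31 (0.70 to 2.25), an interval that holds 1, and the mean within depth bins 1.36. Except where stated, the cause was not tested. Depth limits genes with few UMIs, such as MAG with 40 and CNP with 13 in oligodendrocytes.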
